A study of Saccharomyces cerevisiae with 9 samples.

Results

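The pheromone-induced mating genes described here are 10 genes of budding yeast, Saccharomyces cerevisiae, followed across strains with altered histone H2B or without the enzyme that deubiquitylates it. The genes are SST2 (YLR452C), FUS3 (YBL016W), STE12 (YHR084W), KAR4 (YCL055W), FUS1 (YCL027W), FUS2 (YMR232W), PRM1 (YNL279W), FIG1 (YBR040W), FIG2 (YCR089W) and AGA1 (YNR044W). They were chosen by name as genes of the pheromone response and of cell fusion, and matched to the gene names of the array, where all 10 were found among 6256 genes.

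Haploid yeast cells of opposite mating type signal to each other with peptide pheromones. A receptor at the cell surface releases a G protein, which starts a kinase cascade that ends in the kinase Fus3 and the transcription factor Ste12. Ste12 binds upstream of genes for cell adhesion, cell fusion and nuclear fusion, and also of genes that dampen the signal. Growing cells without a partner keep these genes at a low basal level. The labels name no pheromone treatment, and no label says that the cells met a mating partner.

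RNA of a mutant and of a reference strain was hybridised together in 2 dyes on each of 9 Agilent arrays. The K123R strain (CY1272) carries a K123R change in the H2B gene HTB1, which replaces the ubiquitylated lysine, and lacks the other H2B gene, HTB2. The ubp8 strain (BY10809) lacks UBP8, which encodes the deubiquitylating enzyme of the SAGA complex, and the double mutant (CY1383) carries the HTB1 change and both deletions. Each was compared with the wild type BY4742 on 2 arrays, with the mutant in Cy5 on array 1 and in Cy3 on array 2. The K123R strain was also compared with BY13026, which lacks HTB2 and keeps an unchanged HTB1, on 3 arrays, with K123R in Cy3 on arrays 1 and 3 and in Cy5 on array 2. The reference strain thus shares the HTB2 deletion with the mutant in the latter comparison and not in the former. The design text calls the arrays biological replicates, and whether several arrays shared a wild-type RNA is not stated.

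The deleted genes followed the channel labels, and auxotrophic markers set strains and array sets apart. The title of array 1 of K123R against wild type names htb1 in place of htb2 as deleted. Its channel label names htb2, and on that array HTB1 read 0.42. HTB2 read −3.68 and −3.88 on the log2 scale in K123R against wild type and −3.16 and −3.64 in the double mutant. UBP8 read −2.54 and −2.08 in the ubp8 strain and −2.32 and −2.40 in the double mutant. The marker gene LEU2 read 4.12 and 3.27 in K123R against wild type but −0.54, 0.14 and −0.56 where the reference was the htb2 deletion strain. In the K123R channel itself, LEU2 had normalised signals of 2891 and 3368 on the former arrays and 134, 165 and 105 on the latter. HTB2 had 959 and 891 in that channel on the former and 141, 193 and 173 on the latter. The labels name CY1272 in both array sets. Each array was normalised on its own, so signals of different arrays are not on 1 scale, and the cause of these differences was not tested. HIS3, another marker, was high in K123R on all 5 arrays that carried its RNA (2.47 to 3.87). In the double mutant LEU2 read −0.16 and 0.06 and HIS3 read 3.32 and 2.39. In the ubp8 strain LEU2 read 0.02 and −0.05 and HIS3 read −0.16 and −0.27. The part of these marker differences in the values below was not tested. BY4742 is known as a strain of mating type alpha, and the 4 alpha-specific genes had signals of 4930 to 44630 in every channel with a value, against 77.7 to 1042 for the 7 a-specific genes. These probes differ in sequence, so the gap between them is only a description.

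All 135 spots of the mating genes over the 9 arrays were well above background in both colours and 0 were saturated. FUS3, FIG2, SST2, STE12 and PRM1 were printed on 2 spots per array, and the log2 ratios of such spots differed by a median of 0.02 and at most 0.14, for PRM1. Levels below are normalised signals in scanner units, and ratios are log2 ratios of mutant over reference, so that a negative value means less RNA in the mutant. A gene passed when its p-value from limma, adjusted by the Benjamini-Hochberg method over all genes tested, was under 0.05. Errors of fitted ratios are standard errors (SE).

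In K123R against wild type, the mating genes moved in both directions. SST2, FUS1 and STE12 were lower, FUS2 and FIG1 were higher, and the remaining 5 did not pass. Thus 5 of 10 passed, against 21.1% of all genes tested. The 3 lower genes compare with 10.1% of all genes that passed as lower, and the 2 higher ones with 10.9% that passed as higher. The median ratio over the 10 was −0.15, against 0.00 over all genes.

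SST2 encodes the regulator of G protein signalling that returns the pheromone-activated G protein to rest, and it is itself a pheromone-induced gene. Its signal was 2495 in K123R against 4520 in wild type on array 1, and 2841 against 4488 on array 2. Both arrays were low, at log2 ratios of −0.86 and −0.66. The fitted ratio of −0.76 ± 0.07 (SE, n = 2, adjusted p = 0.00441) was the 33rd lowest of 6247 genes. In RNA of a whole culture, fewer cells with a transcript and less of it per cell cannot be told apart. Leaving out the first of these arrays gave −0.66 with an adjusted p of 0.0677, within a range of 0.0135 to 0.0677 when each of the 6 arrays in the fit was left out in turn.

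The kinase and the transcription factors moved less. FUS3, the kinase that phosphorylates Ste12 and its repressors, read −0.11 and −0.28, with a fitted ratio of −0.19 ± 0.11 (n = 2, adjusted p = 0.251). STE12 read −0.25 and −0.17, and its fitted ratio of −0.21 ± 0.05 (n = 2, adjusted p = 0.0476) lay just past the threshold. KAR4, a transcription factor that acts with Ste12 on genes of nuclear fusion, read −0.22 and −0.08, with a fitted ratio of −0.15 ± 0.08 (n = 2, adjusted p = 0.237). All 3 genes were below 0 on both arrays, and 1 of them passed.

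The fusion genes split. FUS1 encodes a membrane protein of the cell-fusion site. Its signal was 1348 in K123R against 1819 in wild type on array 1 and 1635 against 2053 on array 2, a log2 ratio of −0.43 and −0.33. The fitted ratio was −0.38 ± 0.06 (n = 2, adjusted p = 0.0139). FUS2, whose product acts with Rvs161 to let the partner cells fuse, had a signal of 562 against 478 on array 1 and 536 against 464 on array 2. It was higher on both arrays, at 0.23 and 0.21, and its fitted ratio was 0.22 ± 0.05 (n = 2, adjusted p = 0.0302). PRM1, which promotes merger of the plasma membranes, read 0.21 and 0.02, with a fitted ratio of 0.12 ± 0.09 (n = 2, adjusted p = 0.41).

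Among the genes of the mating cell's surface, FIG1 encodes a membrane protein needed for calcium uptake during mating. Its signal was 1224 against 1035 and 1501 against 1175, so K123R was the brighter strain on both arrays. The ratios of 0.24 and 0.35 gave a fitted value of 0.30 ± 0.08 (n = 2, adjusted p = 0.0469). FIG2, a cell-wall adhesin, read 0.17 and 0.03 (fitted 0.10 ± 0.08, n = 2, adjusted p = 0.424). AGA1, which encodes the anchor subunit of the a-cell agglutinin and is induced in both mating types, read −0.09 and −0.22 (fitted −0.15 ± 0.08, n = 2, adjusted p = 0.256).

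The count of 5 depended on single arrays and on the model. It fell to 2 without any 1 array of the ubp8 strain or the double mutant. The share of all genes fell too, from 21.1% to between 13.2% and 14.2%. STE12, FUS2 and FIG1 did not pass in any of those fits. Leaving out an array of K123R leaves 1 array of that strain, and no count is drawn from it. With the array number as a block, which is the same term as a dye effect of each gene, all 10 passed, against 66.2% of all genes.

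**Figure D1:**
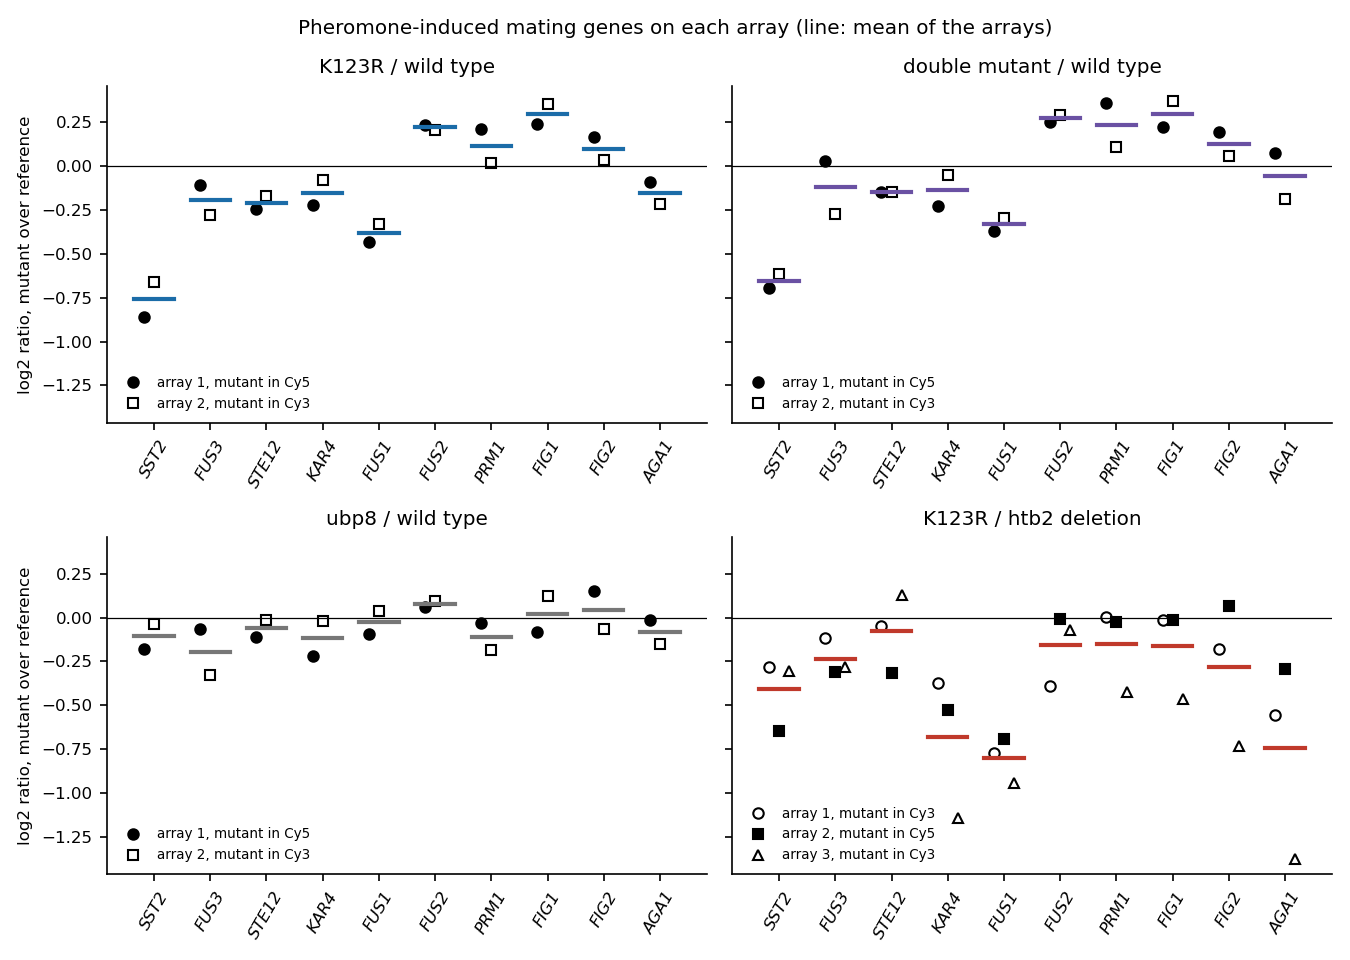
Log2 ratio of mutant over reference (vertical axis) for the 10 mating genes on each array, 1 panel per comparison. Points are arrays (filled where the mutant was in Cy5, open where it was in Cy3) and coloured lines are the mean of the arrays. SST2 and FUS1 lie below 0 on every array of K123R and of the double mutant, and array 3 against the htb2 deletion strain holds the lowest values of AGA1 and KAR4.

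In the ubp8 deletion strain against wild type, no mating gene passed. The 10 fitted ratios ran from −0.20 (FUS3) to 0.08 (FUS2), with a median of −0.07, and 0 of 10 passed in limma, against 2.83% of all genes tested. At an unadjusted p under 0.05 the count was also 0, against 1355 of 6245 genes tested. SST2, low in K123R, read −0.18 and −0.03 here, with signals of 4768 against 5396 and 4601 against 4711. Its fitted ratio was −0.11 with a 95% confidence interval from −0.29 to 0.08 (n = 2, adjusted p = 0.482). FUS1 read −0.09 and 0.04, on either side of 0, with a fitted ratio of −0.03 and an interval from −0.18 to 0.12 (n = 2, adjusted p = 0.875). With the array number as a block 4 of 10 passed, all lower (FUS3, KAR4, SST2 and PRM1), against 49.5% of all genes in either direction and 24.6% that were lower.

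The difference between the 2 single mutants was tested through wild type. Their markers differed too, with LEU2 fitted at 3.70 and HIS3 at 3.17 in K123R, and at −0.02 and −0.22 in ubp8. The part of these markers in the difference was not tested. SST2 was lower in K123R than in the ubp8 strain by a log2 difference of −0.65 ± 0.10 (n = 2 arrays each, adjusted p = 0.0317), and no array of one strain overlapped those of the other. It was the 1 of 10 mating genes that passed, against 8.47% of all genes tested. FUS1 differed by −0.35 ± 0.09 (n = 2 each, adjusted p = 0.067), which did not pass. SST2 no longer passed when any 1 of the 6 arrays was left out, with differences of −0.75 to −0.55. With the block 6 of 10 differed, against 56.5% of all genes.

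In the double mutant against wild type, SST2 and FUS1 were lower and FUS2 and FIG1 were higher. SST2 read −0.69 and −0.62, FUS1 −0.37 and −0.30, FUS2 0.25 and 0.29, and FIG1 0.22 and 0.37 on arrays 1 and 2. Every one of these 8 values had the sign it had in K123R. These genes were picked because they passed, and they had also passed in K123R in the same fit, so the shared signs are a description only. Fitted ratios were −0.66 ± 0.07 for SST2 (n = 2, adjusted p = 0.00658), −0.33 ± 0.06 for FUS1 (n = 2, adjusted p = 0.0201), 0.27 ± 0.05 for FUS2 (n = 2, adjusted p = 0.0183) and 0.30 ± 0.08 for FIG1 (n = 2, adjusted p = 0.049). Thus 4 of 10 passed, 2 in each direction, against 20% of all genes tested (10.2% lower and 9.78% higher). STE12, at −0.15 on both arrays, did not pass (fitted −0.15 ± 0.05, n = 2, adjusted p = 0.114), nor did PRM1 at 0.36 and 0.11 (fitted 0.24 ± 0.09, n = 2, adjusted p = 0.124). KAR4 and FIG2 kept 1 sign on both arrays without passing, and FUS3 and AGA1 lay on either side of 0.

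The double mutant and K123R share the wild-type reference, so their ratios are not independent. The marker LEU2 also set them apart, fitted at −0.05 in the double mutant and 3.70 in K123R, and its part was not tested. When the 2 strains were tested against each other in limma, 0 of 10 mating genes and 0% of all genes tested passed, so LEU2 did not pass either. At an unadjusted p under 0.05 the counts were 0 of 10 and 44 of all genes, and with the block 0 of 10 and 0.224% of all genes passed. The 95% interval of the difference, double mutant minus K123R, ran from −0.15 to 0.36 for SST2 and from −0.17 to 0.26 for FUS1. Fewer of the 10 passed in the double mutant when 1 array of the fit was left out, and the share of all genes there is not given. With the array number as a block 9 of 10 passed (all but AGA1), against 65.5% of all genes.

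Within the pairs against wild type, the step from array 1 to array 2 had 1 sign in all 3 strains for 8 of the 10 genes. Across all genes these steps correlated between strains at 0.865 to 0.886, so the shared step was not particular to the mating genes. For FUS3 the log2 ratio on array 2 minus that on array 1 was −0.17 in K123R, −0.27 in ubp8 and −0.30 in the double mutant. KAR4 moved the other way, by 0.14, 0.20 and 0.18, as did FIG1, by 0.11, 0.21 and 0.14. SST2 and FUS1 also stepped up in all 3 pairs, by 0.08 to 0.20 and by 0.07 to 0.13. FIG2, AGA1 and PRM1 stepped down in all 3, while FUS2 (−0.03, 0.04 and 0.04 in K123R, ubp8 and the double mutant) and STE12 (0.08, 0.10 and 0.00) did not keep 1 sign. Array number and dye orientation are the same split here and cannot be told apart.

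**Figure D2:**
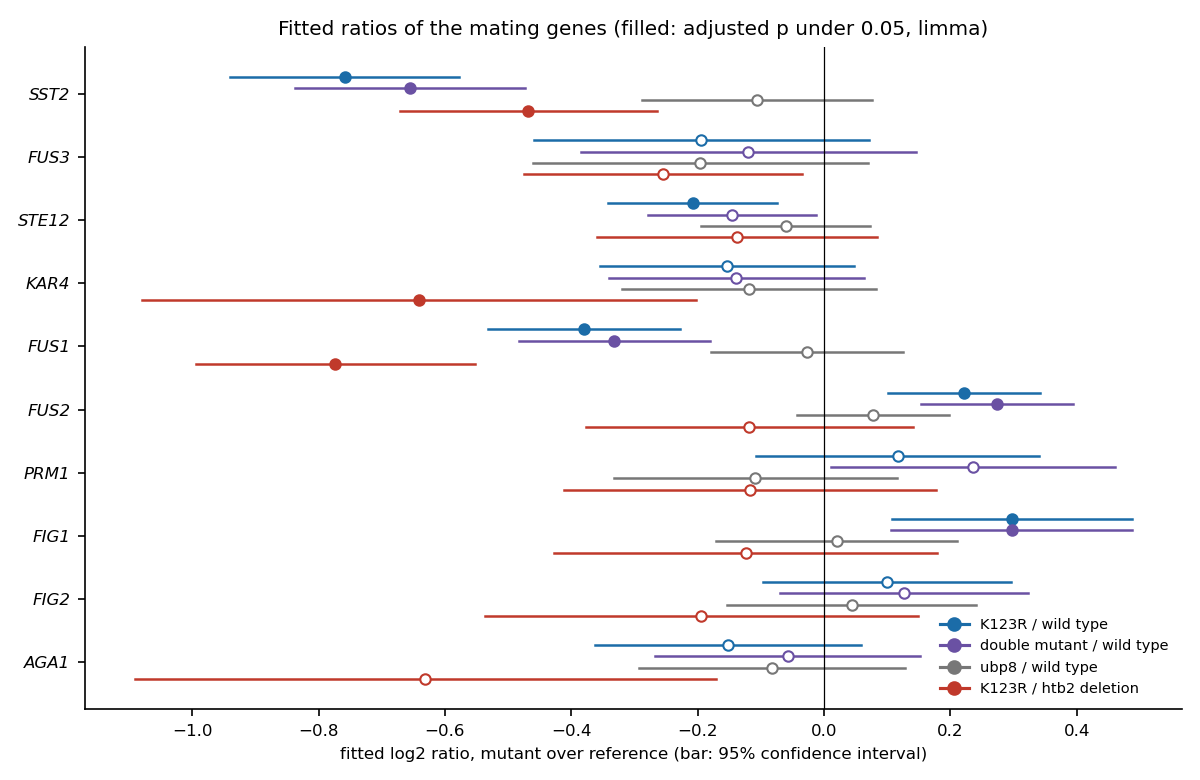
Fitted log2 ratio of mutant over reference (horizontal axis, bars are 95% confidence intervals) for each mating gene in the 4 direct comparisons, filled where the adjusted p from limma was under 0.05. SST2 and FUS1 are filled in all comparisons but that of the ubp8 strain. The intervals of KAR4 and AGA1 against the htb2 deletion strain are the widest shown.

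Against the htb2 deletion strain, every mating gene had a fitted ratio below 0, against 51.7% of all genes. On each single array 9 of the 10 were below 0. FUS1, SST2 and KAR4 passed. That is 3 of 10, close to the 28% of all genes tested in either direction, while 14.3% passed as lower and 13.6% as higher. The median ratio was −0.22, against −0.01 over all genes. These fits carry a dye term and leave 1 residual degree of freedom, so that the spread of each gene rests largely on that of all genes.

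FUS1 was the lowest of the 10. Its signal was 1332 in K123R against 2270 in the htb2 deletion strain on array 1, 1331 against 2150 on array 2 and 1307 against 2508 on array 3. All 3 arrays were low (−0.77, −0.69 and −0.94), and the fitted ratio was −0.77 ± 0.09 (n = 3, adjusted p = 0.0146). This call held without each array in turn, with adjusted p-values of 0.0117 to 0.0285.

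SST2 had signals of 2179 against 2644, 1919 against 3000 and 2495 against 3079. Its ratios were −0.28, −0.64 and −0.30, with the low value on the array that carried K123R in Cy5. The fitted ratio was −0.47 ± 0.08 (n = 3, adjusted p = 0.0217). Leaving out array 1, 2 or 3 gave −0.47, −0.29 or −0.46, none of which passed (adjusted p = 0.0539 to 0.0939, by the mean alone).

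KAR4 and AGA1 had low ratios that varied between these arrays. KAR4 had signals of 5035 against 6508, 3756 against 5409 and 2910 against 6426, with ratios of −0.37, −0.53 and −1.14. Its fitted ratio was −0.64 ± 0.17 (n = 3, adjusted p = 0.0483), and the adjusted p ran from 0.000429 to 0.0521 over 10 other settings with all 3 arrays. AGA1 had signals of 7163 against 10525, 6893 against 8461 and 4657 against 12093, with ratios of −0.56, −0.30 and −1.38. At −0.63 ± 0.18 it did not pass (n = 3, adjusted p = 0.0562), and its adjusted p ran from 0.000692 to 0.0606 over the same 10 settings. Array 3 was the lowest of the 3 for both genes, although arrays 1 and 3 had the same dye orientation.

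**Figure D3:**
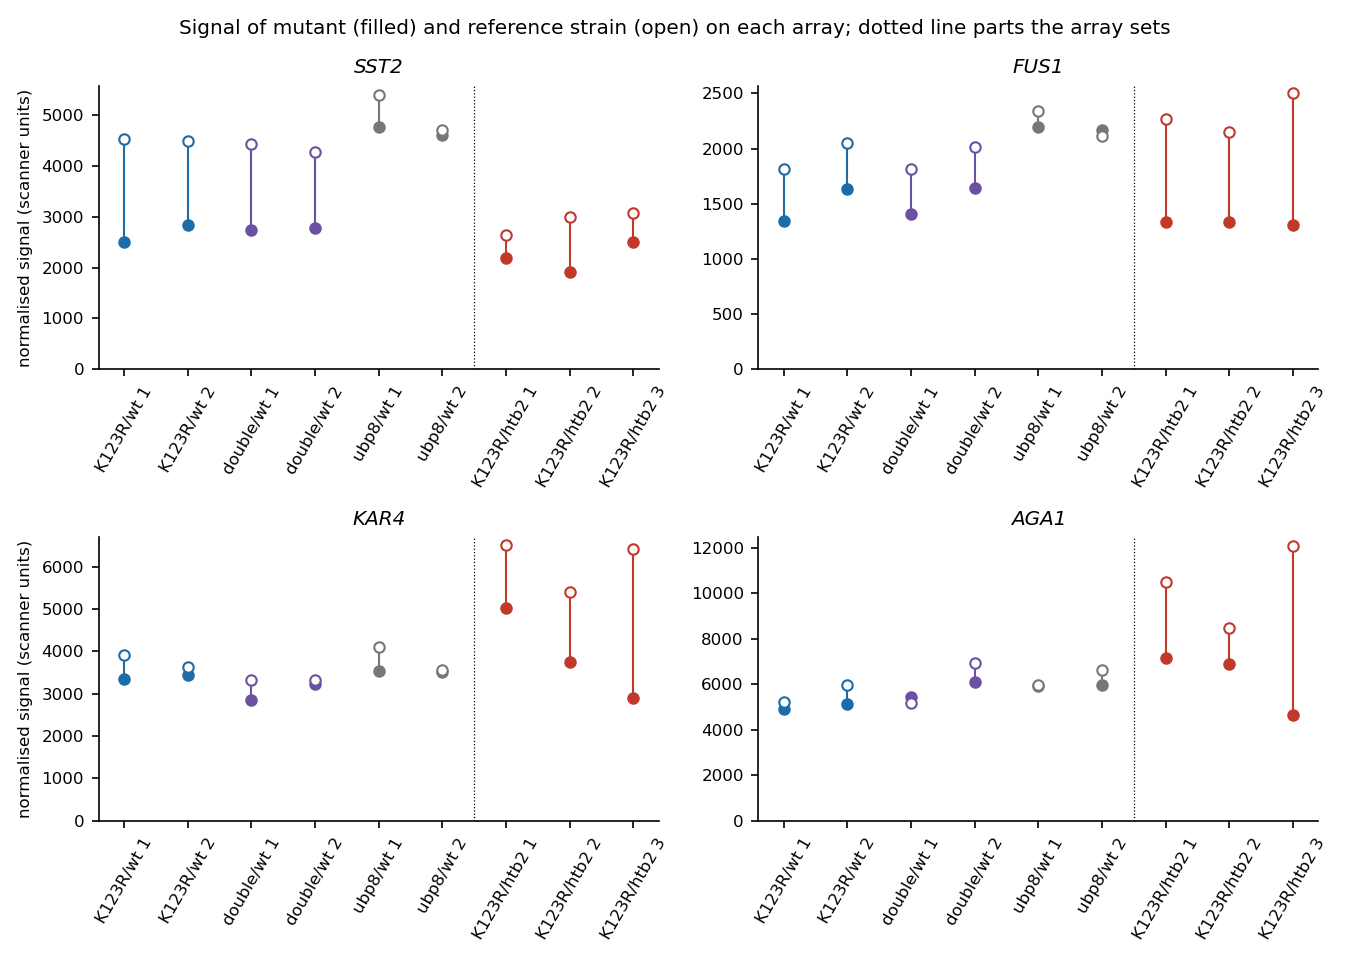
Normalised signal (vertical axis, scanner units, starting at 0) of SST2, FUS1, KAR4 and AGA1 in the mutant (filled) and the reference strain (open) on each of the 9 arrays. The dotted line parts the arrays against wild type from those against the htb2 deletion strain. Each array was normalised on its own, so heights are compared only between the 2 strains of an array. AGA1 has its lowest log2 ratio on array 3 against the htb2 deletion strain, with signals of 4657 against 12093.

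The other 6 genes did not pass. FUS3 read −0.11, −0.31 and −0.28 (fitted −0.25 ± 0.09, n = 3, adjusted p = 0.0808), below 0 on all 3 arrays. STE12 read −0.05, −0.31 and 0.13, and PRM1 read 0.00, −0.02 and −0.42. FUS2 read −0.39, −0.01 and −0.07, and FIG1 read −0.01, −0.01 and −0.46, so that both genes that had passed as higher against wild type were at or below 0 on every array here. FIG2 read −0.18, 0.07 and −0.73.

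Array 3 was scanned on a slide of its own, apart from arrays 1 and 2. The difference of array 3 minus array 1 was −0.82 for AGA1, a gap as low as that of 0.657% of 5477 genes with values on both, and −0.77 for KAR4, as low as 0.895% of genes. It was −0.55 for FIG2, −0.45 for FIG1 and −0.42 for PRM1, but 0.32 for FUS2, 0.18 for STE12 and −0.02 for SST2. The SD of this difference over all genes was 0.26. Without array 3, AGA1 was at −0.43 and KAR4 at −0.45 by the mean alone, and KAR4 alone of the 2 passed (adjusted p = 0.0545 and 0.0417).

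Whether the ratio of a mating gene in K123R depended on the reference strain was tested on all 9 arrays. FUS1 was lower against the htb2 deletion strain than against wild type. The ratio against wild type minus that against the htb2 deletion strain was 0.39 ± 0.07 (n = 2 and 3 arrays, adjusted p = 0.025), with no overlap of the arrays. SST2 went the other way, with a difference of −0.29 ± 0.05 (n = 2 and 3, adjusted p = 0.0266). Its arrays did not overlap either, though the nearest were −0.66 and −0.64. These were 2 of 10 mating genes, close to the 18% of all genes tested that differed.

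For FUS2 and FIG1 the difference was 0.34 ± 0.10 (n = 2 and 3, adjusted p = 0.0682) and 0.42 ± 0.13 (n = 2 and 3, adjusted p = 0.0786), so their change of sign did not pass. AGA1 and KAR4 differed by 0.48 ± 0.24 and 0.49 ± 0.22 without passing (n = 2 and 3 each, adjusted p = 0.182 and 0.157). FUS3 and STE12 had the smallest differences, 0.06 ± 0.07 and −0.07 ± 0.07. The count of 2 fell to 0 when any 1 array of the ubp8 strain or the double mutant was left out. It rose to 9, 5 and 8 without array 1, 2 and 3 against the htb2 deletion strain. The share of all genes that passed in these fits is not given here. These counts are therefore not read as a result about the mating genes. Reference strain, array set, scanner software, the HTB1 ratio and the LEU2 signal of the K123R RNA changed together between the comparisons and cannot be told apart.

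Upstream of these targets, the receptor gene of alpha cells was lower in K123R and in the double mutant. Of 5 genes for receptors and the G protein, 1 passed against wild type in each of these strains, where 21.1% and 20% of all genes passed. It was STE3, the a-factor receptor of alpha cells, at −0.87 ± 0.08 in K123R (n = 2, adjusted p = 0.00411) and −0.88 ± 0.08 in the double mutant (n = 2, adjusted p = 0.00453). Against the htb2 deletion strain 2 of 4 tested passed, both lower, against 14.3% of all genes that were lower. They were STE3 at −0.84 ± 0.10 (n = 3, adjusted p = 0.0146) and STE18, the G protein gamma subunit, at −0.71 ± 0.09 (n = 3, adjusted p = 0.0157). STE18 read −0.60, −0.72 and −0.79 there. The list's median was −0.29 in K123R against wild type and −0.47 against the htb2 deletion strain. With the array number as a block all 5 passed in K123R and in the double mutant (1 higher and 4 lower in each), against 66.2% and 65.5% of all genes.

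Of 10 genes for the scaffold and the kinases, 1 passed as lower in K123R and 1 in the double mutant. These counts are close to the 10.1% and 10.2% of all genes that were lower. It was FAR1 in both, which links the signal to cell-cycle arrest and polarity. FAR1 was at −0.30 ± 0.06 in K123R (n = 2, adjusted p = 0.0223) and −0.24 ± 0.06 in the double mutant (n = 2, adjusted p = 0.0429). Against the htb2 deletion strain it read 0.21 and −0.21 on arrays 1 and 2. With the block 3 of the 10 genes were higher and 3 lower in K123R, and 3 higher and 4 lower in the double mutant. In the ubp8 strain 5 were lower, against 66.2%, 65.5% and 49.5% of all genes in the 3 strains. Against the htb2 deletion strain 3 of 10 passed as higher, against 13.6% of all genes that were higher. They were BEM1, a polarity scaffold, at 0.39 ± 0.09 (n = 3, adjusted p = 0.0329), the kinase gene STE7 at 0.37 ± 0.08 (n = 3, adjusted p = 0.0336) and the kinase gene STE11 at 0.33 ± 0.09 (n = 3, adjusted p = 0.0499). None of the 5 negative regulators on the list (DIG1, DIG2, MSG5, BAR1 and AKR1) passed against wild type without the block. Against the htb2 deletion strain 0 of 4 tested passed, and DIG1 was not tested. DIG1 had a value on 1 array only in ubp8 and in the double mutant. BAR1 in ubp8 came nearest to passing, at 0.49 ± 0.08 (n = 2, adjusted p = 0.0501). With the block, 1 was higher and 2 were lower in each of the 3 strains against wild type. There 66.2%, 65.5% and 49.5% of all genes passed in K123R, the double mutant and ubp8.

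A list of 25 other pheromone-induced genes also split in K123R against wild type, where 3 rose and 7 fell. Over all genes 10.9% passed as higher and 10.1% as lower, so the share that rose was close to that of all genes. PRM2 rose by 0.57 ± 0.07 (n = 2, adjusted p = 0.00698), and the kinesin gene KAR3, whose motor draws the nuclei together, by 0.48 ± 0.05 (n = 2, adjusted p = 0.00899). PRM3, needed at the nuclear envelope for karyogamy, was the remaining one. The lowest adjusted p-values among those that fell were of SAG1, the alpha-agglutinin (−0.76 ± 0.05, n = 2, adjusted p = 0.00301), PRM5 (−0.55 ± 0.07, n = 2, adjusted p = 0.00721) and SCW10, a cell-wall glucanase relative (−0.40 ± 0.05, n = 2, adjusted p = 0.00907). With the block 7 of the 25 passed as higher and 14 as lower, against 66.2% of all genes in either direction. The list's median was −0.15.

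In the double mutant the same list had 3 genes higher and 7 lower, against 9.78% and 10.2% of all genes. KAR3, counted among the 3, had a value on array 1 only (0.52), so its spread came from the other strains. In the ubp8 strain 0 of 25 passed without the block, against 2.83% of all genes. Those with the smallest adjusted p in the double mutant were SAG1 at −0.70 ± 0.05 (n = 2, adjusted p = 0.00394), PRM2 at 0.58 ± 0.07 (n = 2, adjusted p = 0.00736), PRM3 at 0.67 ± 0.10 (n = 2, adjusted p = 0.0122), SCW10 at −0.36 ± 0.05 (n = 2, adjusted p = 0.0125) and PRM5 at −0.42 ± 0.07 (n = 2, adjusted p = 0.0142). With the block the counts were 6 higher and 13 lower in the double mutant and 7 higher and 6 lower in the ubp8 strain, against 65.5% and 49.5% of all genes in either direction.

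Against the htb2 deletion strain 1 of 24 tested was higher and 6 were lower, against 13.6% and 14.3% of all genes. PRM3 was the one that was higher, as it was in K123R and in the double mutant against wild type, and it read 0.62, 0.54 and 0.26. PRM5 read −1.07, −0.65 and −0.99, with a fitted ratio of −0.84 ± 0.08 (n = 3, adjusted p = 0.0123). SAG1 read −1.08 and −1.29 on arrays 1 and 3, SCW10 −0.60 and −0.89 on arrays 2 and 3 and HYM1 −0.45 and −0.56 on arrays 1 and 2. The value of the remaining array was left out as an outlier, and these 3 genes were fitted by the mean of 2 arrays. AFR1, which adjusts receptor signalling and the shape of the mating projection, read −0.56, −0.45 and −0.37, with a fitted ratio of −0.46 ± 0.09 (n = 3, adjusted p = 0.0257).

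**Figure D4:**
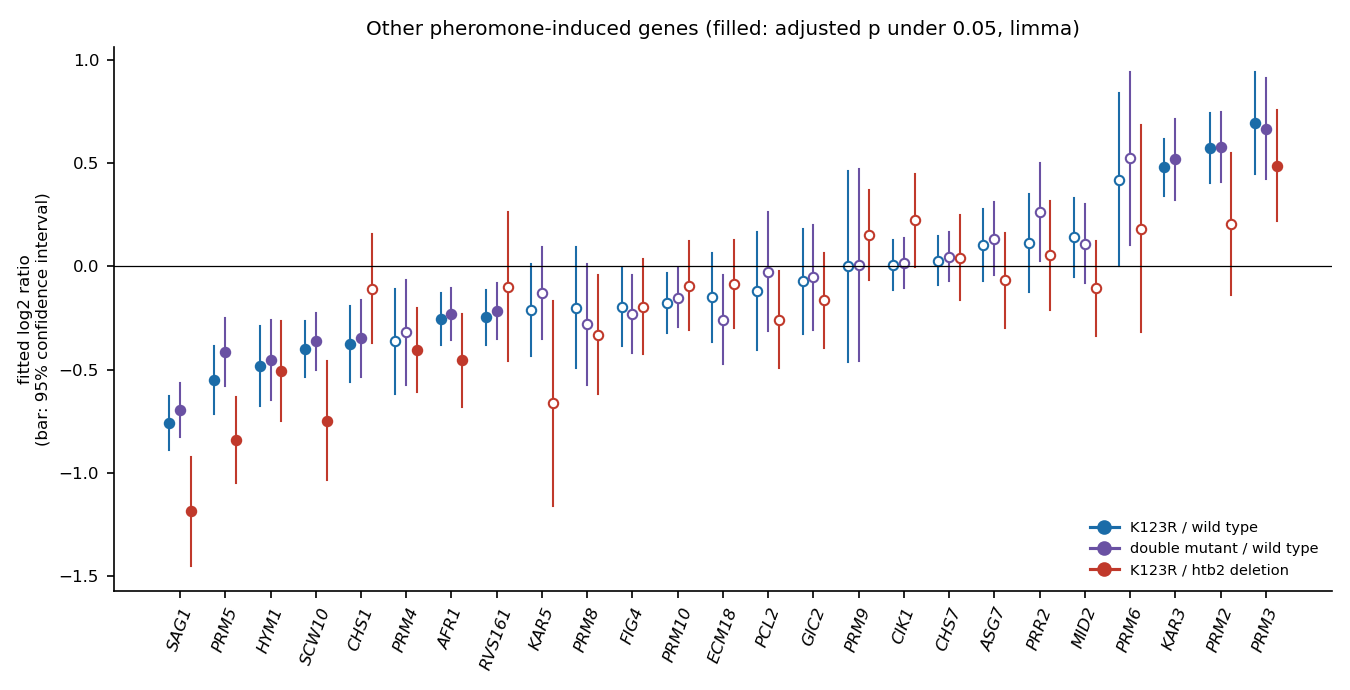
Fitted log2 ratio (vertical axis, bars are 95% confidence intervals) of 25 other pheromone-induced genes, ordered by their ratio in K123R against wild type, filled where the adjusted p from limma was under 0.05. PRM3 is filled above 0 and SAG1, PRM5, SCW10, HYM1 and AFR1 are filled below 0 in all 3 comparisons drawn. KAR3 has no value against the htb2 deletion strain.

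Ste12 also acts with Tec1 on genes of filamentous growth. Of 4 such genes, 1 was lower in K123R against wild type and 1 against the htb2 deletion strain, against 10.1% and 14.3% of all genes. It was YLR042C in both (−0.36 ± 0.09, n = 2, adjusted p = 0.0484, and −0.64 ± 0.08, n = 3, adjusted p = 0.0158). In ubp8 and the double mutant 0 of 4 passed without the block, against 2.83% and 20% of all genes. With it, 1 was higher and 2 were lower in K123R, 2 were lower in the double mutant and 3 in the ubp8 strain. The shares of all genes in either direction were 66.2%, 65.5% and 49.5%. Among genes of cell identity, all 4 alpha-specific genes were lower in K123R than in the htb2 deletion strain, against 14.3% of all genes. The pheromone precursor genes were at −0.45 ± 0.08 for MF(ALPHA)1 (n = 3, adjusted p = 0.0225) and −0.63 ± 0.13 for MF(ALPHA)2 (n = 3, adjusted p = 0.0299). Against wild type 2 of 4 were lower in K123R and in the double mutant, against 10.1% and 10.2% of all genes, and 0 of 4 passed in ubp8. Those 2 were STE3 and SAG1, which are also counted in lists above. With the block all 4 were lower in K123R and in the double mutant and 1 was higher in ubp8. The shares of all genes in either direction were 66.2%, 65.5% and 49.5%. None of the 7 a-specific genes passed in any direct comparison without the block. With it, 4 were higher in K123R, 4 in the double mutant and 2 in ubp8, against 66.2%, 65.5% and 49.5% of all genes in either direction.

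The mean ratio over the 10 mating genes was −0.11 and −0.11 in K123R against wild type, −0.03 and −0.07 in the double mutant, −0.06 and −0.05 in the ubp8 strain and −0.27, −0.28 and −0.56 against the htb2 deletion strain. Single genes followed this mean to different degrees over the 9 arrays, with a Pearson r of 0.96 for AGA1, 0.95 for KAR4 and 0.87 for FUS1, but −0.16 for SST2 and −0.48 for STE12. Of 5276 other genes compared, those most like the mean were ECM37 (named ATG32 in RefSeq), PET54, YPL264C, CTK2 and COX12, with r of 0.97 to 0.98. These correlations describe 9 arrays that share strains and dyes, and the arrays against the htb2 deletion strain hold the lowest values of the mean.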

How the data were processed

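Per the file headers, the scanner software was Feature Extraction, version A.7.5.1 for the wild-type arrays and 8.5.1.1 for the htb2 arrays, and it gave an intensity per spot and colour. The authors also deposited log10 ratios, which matched the software's dye-normalised signals to within 5e-10 once Cy3 mutants were turned. Median signal over background was 25.8 to 54.6 in green and 43.3 to 65.4 in red, and the number of arrays limits precision. Of the gene spots, 0.76% to 3.62% were marked as outliers on arrays against wild type and 18.8% to 19% on the others, and were left out; saturated spots were kept.

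From the deposited mean intensity and median background, log2 ratios were computed in R 4.3.3 with limma 3.58.1 (normexp with an offset of 50, loess within each array, repeated spots averaged). A gene was tested if either colour of its probe was well above background on 3 of 6, or 2 of 3, arrays. The 6 arrays against wild type entered one limma fit with a mean per mutant. The 3 others were fitted alone with a dye term, or by the mean alone where no residual was left beside it (547 genes, no mating gene among them). All 9 entered one fit with a dye term per array set to compare the references. The pipeline was tested on simulated data.

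Array numbers were taken as pairs, since the labels give each number 1 dye orientation and deviations of same-numbered arrays correlated at 0.886, 0.865 and 0.867 across genes. The residuals are thus not independent, and p-values without the block are approximate. They measure the spread between these arrays only.

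The members, the gene lists and the rule for naming genes were chosen with earlier results of these data known. All 10 members are given, and of each other list the number that passed and up to 5 passing genes with the smallest adjusted p in each comparison. The treatment of genes without a residual was set after results had been seen. Of 6256 systematic names, 5756 matched RefSeq assembly R64, which was used for names only. The sources used here name no genome build and hold no probe sequence, so no coordinates or sequences are printed.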

Additional observations from a re-analysis of the deposited data

Results flagged for a closer look

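The ratio of SST2 differed between the single mutants, with K123R minus ubp8 at −0.65 on the log2 scale (adjusted p = 0.0317 by limma), lower in K123R on every pairing of the 2 arrays of each strain. The adjusted p ran from 0.000237 to 0.0401 over 9 other settings with all arrays and from 0.0756 to 0.166 without 1 array. The ratio of K123R differed between reference strains for FUS1, at 0.39 (wild type minus htb2 deletion strain, adjusted p = 0.025), and for SST2, at −0.29 (adjusted p = 0.0266). Their adjusted p-values ran from 0.0233 to 0.104 and from 0.0244 to 0.161 over 9 other settings, and from 0.000382 to 0.321 and from 0.00204 to 0.338 without 1 array. Both differences lie between array sets that also differ in scanner software, in the HTB1 ratio and in the LEU2 signal of the K123R RNA, which cannot be told apart.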

How the results depend on the processing

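The number of mating genes that passed in K123R against wild type was 5, against 21.1% of all genes. It became 3 with the scanner software's processed signals and 3 with the deposited values (20.2% of all genes in each). Median centring in place of loess gave 3 (18.8%), the slide as a block 3 (25%) and its own arrays alone 2 (17.6%). Without 1 array of the ubp8 strain or the double mutant it was 2 (13.2% to 14.2%). For the settings below no share of all genes is given here. Their counts are not read as particular to the mating genes. With the replicate block the counts became 10 in K123R, 4 in ubp8 (from 0) and 9 in the double mutant (from 4). In the difference of K123R and ubp8 the count became 6 (from 1). The block changed no call in the difference of the double mutant and K123R. The double mutant's own arrays alone gave 2, and its count ran from 0 to 3 without 1 array. For K123R minus ubp8 the slide block gave 2, and leaving out 1 array gave 0. Against the htb2 deletion strain the count of 3 ran from 2 to 4 over all settings. The difference between references (2) became 0 with a dye term against the htb2 deletion strain only, and ran from 0 to 9 without 1 array. A slide block could not be fitted there. The alternative of keeping the dye term where no residual is left, added after seeing the data, gave 2 against the htb2 deletion strain, without KAR4, as did testing with no filter on dim probes.

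Signs turned only in values that had not passed. With the slide block in ubp8 they were FUS3 at 0.039, FIG1 at −0.11, AGA1 at 0.11 and PRM1 at 0.11, and in the double mutant FUS3 at 0.054 and AGA1 at 0.074. Without 1 array the ubp8 ratios ran from −0.092 to 0.037 for FUS1, −0.084 to 0.12 for FIG1 and −0.065 to 0.15 for FIG2, those of the double mutant from −0.27 to 0.032 for FUS3 and −0.19 to 0.073 for AGA1, and STE12 against the htb2 deletion strain from −0.18 to 0.039. The cause of these changes was not tested. Over all settings, 547 of 661 recomputed ratios of single mating genes kept their sign and their side of the threshold. The number of arrays, 2 or 3 per comparison, limits the precision of each ratio.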
